A study of Mus with 21 samples.

Results

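The 13 libraries described here are those of the series' 21 libraries whose genotype carries a deleted Wapl allele, and they were divided by the position in which that allele is written. In 6 libraries the label puts the deletion first, Wapl delta/+, and in 7 it puts the deletion second, Wapl +/delta. Each library was made from the whole brain of a female mouse embryo at E17.5, late in gestation, by poly(A) RNA sequencing. The first set holds 2 libraries with Nipbl +/+ (Wapl heterozygote replicates 1 and 2) and 4 with Nipbl +/delta (double heterozygote replicates 1 to 4). The second set holds 5 libraries with Nipbl +/+ (Wapl heterozygote replicates 3 to 7) and 2 with Nipbl +/delta (double heterozygote replicates 5 and 6). All 13 embryos thus carry 1 intact Wapl allele. The remaining 8 libraries, 5 wild type (WT, Wapl +/+ and Nipbl +/+) and 3 of Nipbl +/delta with Wapl +/+, have no deleted Wapl allele and serve as reference levels.

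WAPL removes the ring-shaped cohesin complex from chromatin, and NIPBL, with its partner MAU2, loads it, so the genes act in opposite directions on how long cohesin stays on DNA and how far it extrudes loops. Loss of 1 Nipbl copy is the main cause of Cornelia de Lange syndrome, in which brain and other organs develop abnormally. The study's Wapl deletion lacks the promoter and the first exons, was made by crossing Wapl Flox mice with E2a-Cre females and was backcrossed to C57BL/6J; the Nipbl deletion was passed on by Nipbl Flox/+ sires whose Stra8-iCre transgene is active in premeiotic male germ cells. Embryos came from 2 crosses, and in one of them the dams carried Wapl Flox, so that a deleted allele there came from the sire. In the other cross the sires were Wapl +/+, so that a deleted allele came from the dam. By a common convention the allele of the dam is written first. The labels do not say that this convention was followed, nor do they give the cross, dam or litter of any library. Position of the allele, cross, parent of origin, litter and day of collection therefore cannot be told apart.

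Counts assigned to genes ranged from 28686272 to 32615729 in the libraries written first and from 25682566 to 34650792 in those written second. Of 9 measures taken over whole libraries, including depth, number of genes detected, shares of mitochondrial and ribosomal protein counts and the first 4 principal components, none differed by position after adjustment for the 9 tests. The smallest p belonged to principal component 2, which lay between 0.26 and 5.70 in the libraries written first and between -6.91 and 1.16 in those written second (exact permutation test within Nipbl genotype, two-sided, p = 0.0254, adjusted p = 0.229). Position accounted for 29.7% of the variance of that component among the 13 libraries. The libraries compared pairwise within each group differed by more than sampling noise. The libraries are replicates by their labels, and since shared litters are not recorded, the p-values measure the spread between these libraries only.

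Wapl itself (chr14:34672379-34747983, GRCm38.p6) was at a similar level in both sets. Its normalized counts, which are counts scaled to a common library size, were 590.4, 740.5, 704, 733, 744 and 757 in the libraries written first. In the libraries written second they were 755, 741, 718, 721, 609.9, 704 and 774.5. The sets overlapped throughout and lay well under the 1389 to 1606 of the WT libraries and the 1320 to 1470 of the Nipbl +/delta libraries. Mean Wapl was 712 ± 62.0 (SD, n = 6) and 718 ± 53.2 (SD, n = 7), or 47.7% and 48.1% of the WT mean. The difference, written first over second with Nipbl genotype as covariate, was -0.05 on the log2 scale (SE 0.06, adjusted p = 0.960, edgeR quasi-likelihood test). Nipbl differed by 0.00 in the same fit (SE 0.04, adjusted p = 0.994).

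Across all genes, 51 of the 30552 tested differed by position at an adjusted p below 0.10, which is 0.167% of the genes tested. Of these, 38 were higher where the deletion is written first (0.124%) and 13 were lower (0.0426%). The genes fell into a few recognisable kinds: 3 neighbouring mitochondrial genes and 1 nuclear pseudogene that changed over from one set to the other, 36 mostly long and well expressed genes that were higher by less than 2-fold, genes of pituitary and liver that were detected in a few libraries written second, and a small group of signalling and transcription factor genes that were lower. The 6 and 7 libraries did not overlap at all for 26 of the 51 genes (51%), against 113 of all genes tested (0.37%). The 51 were chosen by a test on these same libraries, so a larger share is in part built into their choice. Without adjustment, 1007 genes were higher and 818 lower at p below 0.05, or 5.97% of those tested. The count of calls depended on single libraries. It was 10 without Wapl heterozygote replicate 2, 17 without double heterozygote replicate 4 or replicate 6, 26 without Wapl heterozygote replicate 6 or double heterozygote replicate 3, 27 without double heterozygote replicate 1, 87 without Wapl heterozygote replicate 1, 93 without Wapl heterozygote replicate 4 and 123 without double heterozygote replicate 5. Of the 51 genes, 10 were still called without Wapl heterozygote replicate 2.

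The clearest separation concerned mt-Nd3, which encodes a subunit of respiratory complex I on the mitochondrial genome. The libraries written first had 0, 3, 3, 4, 3 and 2 counts of mt-Nd3. Those written second had 98, 70, 52, 106, 64, 96 and 68 counts. No library lay between these ranges, and the difference was -4.93 on the log2 scale (SE 0.27, adjusted p = 6.27e-09). Counting error alone placed the ratio of the summed counts, second over first, at 31.2 (95% interval 18.8 to 56.2).

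Both transfer RNA genes that flank mt-Nd3 behaved in the same way. mt-Tg, the glycine tRNA gene just upstream, had 0 counts in all 6 libraries written first and 84, 61, 37, 94, 55, 85 and 55 counts in those written second. Its counts were thus at least 133-fold lower where the deletion is written first (adjusted p = 6.61e-07). This limit takes 3 counts over the group as the most that 0 allows. mt-Tr, the arginine tRNA gene just downstream, had at most 1 count in a library written first and between 7 and 12 in a library written second (adjusted p = 0.00158). In the reference, mt-Tg, mt-Nd3 and mt-Tr occupy positions 9391 to 9458, 9459 to 9806 and 9808 to 9875 of the mitochondrial genome. The genes on either side of this stretch did not separate the sets. However, mt-Co3 and mt-Nd4l, like mt-Nd3, had few counts beside mt-Nd4. How far counts in this stretch follow RNA levels was not tested. mt-Co3, a complex IV subunit at 8607 to 9390, had 27 to 57 counts where the deletion is written first and 33 to 66 where it is written second (log2 difference -0.19, SE 0.20, adjusted p = 0.947). mt-Nd4l, at 9877 to 10173, had 5 to 15 and 12 to 17 counts (log2 difference -0.53, SE 0.27, adjusted p = 0.853), and mt-Nd4, next to it, had 32378 to 41538 and 28924 to 42480 (log2 difference 0.04, SE 0.04, adjusted p = 0.954). Of 15 mitochondrially encoded protein and ribosomal RNA genes, mt-Nd3 alone was called.

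Gm28438, which belongs to the nuclear copies of mitochondrial DNA, was the mirror image. Its counts were 61, 76, 61, 121, 107 and 62 in the libraries written first and 11, 13, 4, 2, 10, 11 and 8 in those written second. Again the sets did not overlap, and the log2 difference was 3.14 (SE 0.28, adjusted p = 7.09e-06). Of 6 such copies in the list, this was the one called; Gm28437 was higher at an unadjusted p below 0.05 only. When the normalized counts of mt-Nd3 and Gm28438 were added, the sets overlapped, with 61.7 to 137 (median 74.2) where the deletion is written first and 68.2 to 104.5 (median 80.1) where it is written second. mt-Nd3 made up 0% to 4.69% of the pair's counts in the libraries written first and 84.3% to 98.1% in those written second. How reads matching both places were counted is not given in the sources used here, so the division of counts between a mitochondrial gene and a nuclear copy is uncertain.

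The same pattern appeared among libraries without a Wapl deletion. In WT replicates 1, 2 and 3 mt-Nd3 made up 2.70%, 6.67% and 1.67% of the pair's counts, and in WT replicates 4 and 5 it made up 91.2% and 91.5%. The 3 Nipbl +/delta libraries had 4.71%, 2.04% and 0.813%. Over the 21 libraries the share was thus either 6.67% or less or 84.3% or more, and the 5 WT libraries held both readings. The mitochondrial genome is inherited from the dam. The dams are not given in the labels, and their part in this separation was not tested. mt-Nd3, mt-Tg, mt-Tr and Gm28438 kept their calls whichever of the 13 libraries was left out.

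**Figure D1:**
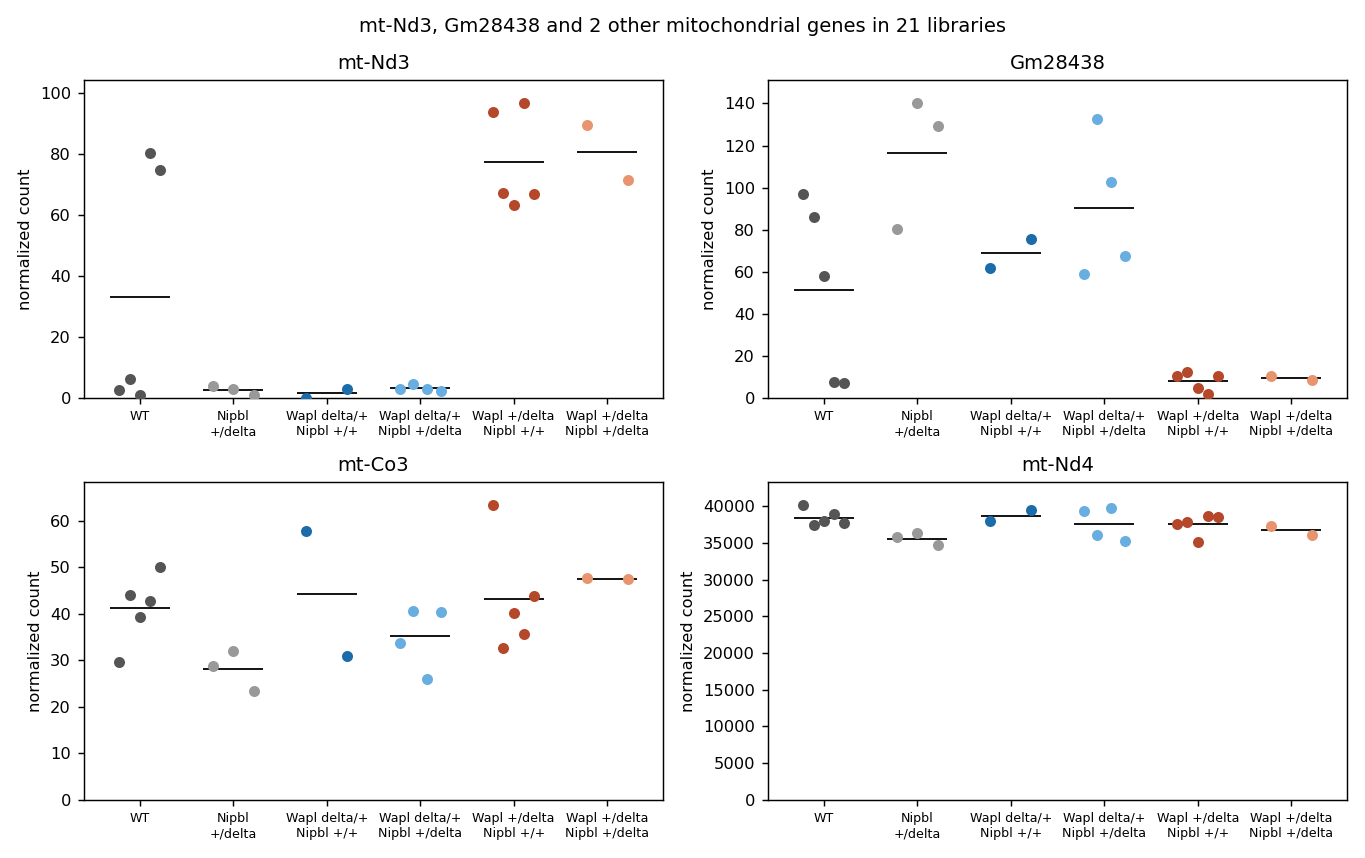
Normalized counts (y axis, from 0) of mt-Nd3, Gm28438, mt-Co3 and mt-Nd4 in the 21 libraries; points are libraries in order of replicate number and lines are group means. mt-Nd3 is near 0 in all 6 libraries with Wapl delta/+ and high in all 7 with Wapl +/delta, Gm28438 shows the opposite, the 5 WT libraries are divided, and mt-Co3 and mt-Nd4 overlap between the sets.

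The largest group of called genes rose modestly where the deletion is written first. It comprised 36 genes with log2 differences from 0.19 to 0.55 (median 0.33), all averaging at least 1 CPM, the usual count relative to library size. Ubr4 (chr4:139380659-139489533), which encodes a very large E3 ubiquitin ligase, had normalized counts of 11180, 12750, 11820, 11280, 12880 and 12780 in the libraries written first. In those written second it had 9352, 9681, 7719, 8041, 7910, 9098 and 7949. The sets did not overlap, and the log2 difference was 0.50 (SE 0.06, adjusted p = 0.00158). Trrap (chr5:144767737-144859778), the scaffold of several histone acetyltransferase complexes, had 8431 to 9934 normalized counts (median 9120) against 6073 to 7611 (median 6685), a log2 difference of 0.41 (SE 0.06, adjusted p = 0.00459). Hectd4 (chr5:121219513-121368577), a HECT-domain protein, had 14032 to 16294 (median 15414) against 10773 to 12992 (median 11635), a log2 difference of 0.37 (SE 0.05, adjusted p = 0.00577). These 3 genes separated the sets without overlap and kept their calls whichever of the 13 libraries was left out. The 36 genes, chosen by this test, separated the sets completely in 21 cases.

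Notch2, a Notch receptor, had 2000.3 to 2673 normalized counts (median 2344) in the libraries written first and 1581 to 1965 (median 1747) in those written second, with a log2 difference of 0.39 (adjusted p = 0.0283). Tenm4, a teneurin with roles in axon guidance and myelination, rose from a mean of 5323 to 7088 (adjusted p = 0.0346). Csmd2, a transmembrane protein with CUB and Sushi domains, had 4158 to 5020 normalized counts against 3182 to 4216 (adjusted p = 0.0184), so that the ranges touched. Sec16a, which organises exit sites of the endoplasmic reticulum, had 3880 to 4563 against 3090 to 3762 (adjusted p = 0.0121). The ranges of Sec16a did not overlap. Dyrk1b, a protein kinase gene, Fry, Zfyve26 and the uncharacterised Gm10524 had log2 differences of 0.47, 0.39, 0.38 and 0.55 (adjusted p = 0.0567, 0.0460, 0.0582 and 0.0685). Of the 13 fits leaving out 1 library, those for Notch2, Csmd2 and Sec16a lost the call only without Wapl heterozygote replicate 2, where their adjusted p ranged up to 0.241.

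Among the other genes of the group, Crebbp, a histone acetyltransferase, rose by 0.24 on the log2 scale (SE 0.04, adjusted p = 0.0441). Ep400, a chromatin remodeller of the TIP60 complex, rose by 0.35 (SE 0.07, adjusted p = 0.0582), Chd7, another remodeller, by 0.33 (SE 0.06, adjusted p = 0.0603), and Med13l, of the Mediator kinase module, by 0.33 (SE 0.07, adjusted p = 0.0822). The homeodomain zinc finger gene Zfhx3 rose by 0.26 (SE 0.04, adjusted p = 0.0184). Zfhx2 and its antisense transcript Zfhx2os both rose, by 0.27 and 0.27, but they overlap on chromosome 14 and the strand setting of the counting is not given, so their reads cannot be told apart.

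Dync1h1, the heavy chain of cytoplasmic dynein, was the most abundant of those described, with 27592 to 33203 normalized counts against 22360 to 28296 (log2 difference 0.31, SE 0.06, adjusted p = 0.0582). Flna, which encodes the actin crosslinker filamin A, had 16656 to 18010 against 12303 to 16450 without overlap (log2 difference 0.32, SE 0.07, adjusted p = 0.0822). Pcnt, of the centrosome, Ift172, of intraflagellar transport, Pkd1 (polycystin 1), and the calcium channel genes Ryr1 and Cacna1b were also called, with log2 differences between 0.20 and 0.35. Igf2r binds IGF2 and mannose 6-phosphate and was listed among maternally expressed imprinted genes, but the allele its reads came from was not measured here. It had 2612 to 3327 normalized counts against 2281 to 2670 (log2 difference 0.32, SE 0.06, adjusted p = 0.0346). The ranges overlapped at Wapl heterozygote replicate 1, and the call was lost without Wapl heterozygote replicate 2 or double heterozygote replicate 6. Igf2r was the one called gene of 18 maternally expressed imprinted genes, and none of 26 paternally expressed ones was called. Over all genes tested the share was 0.167%, so these counts do not set the 2 lists apart.

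**Figure D2:**
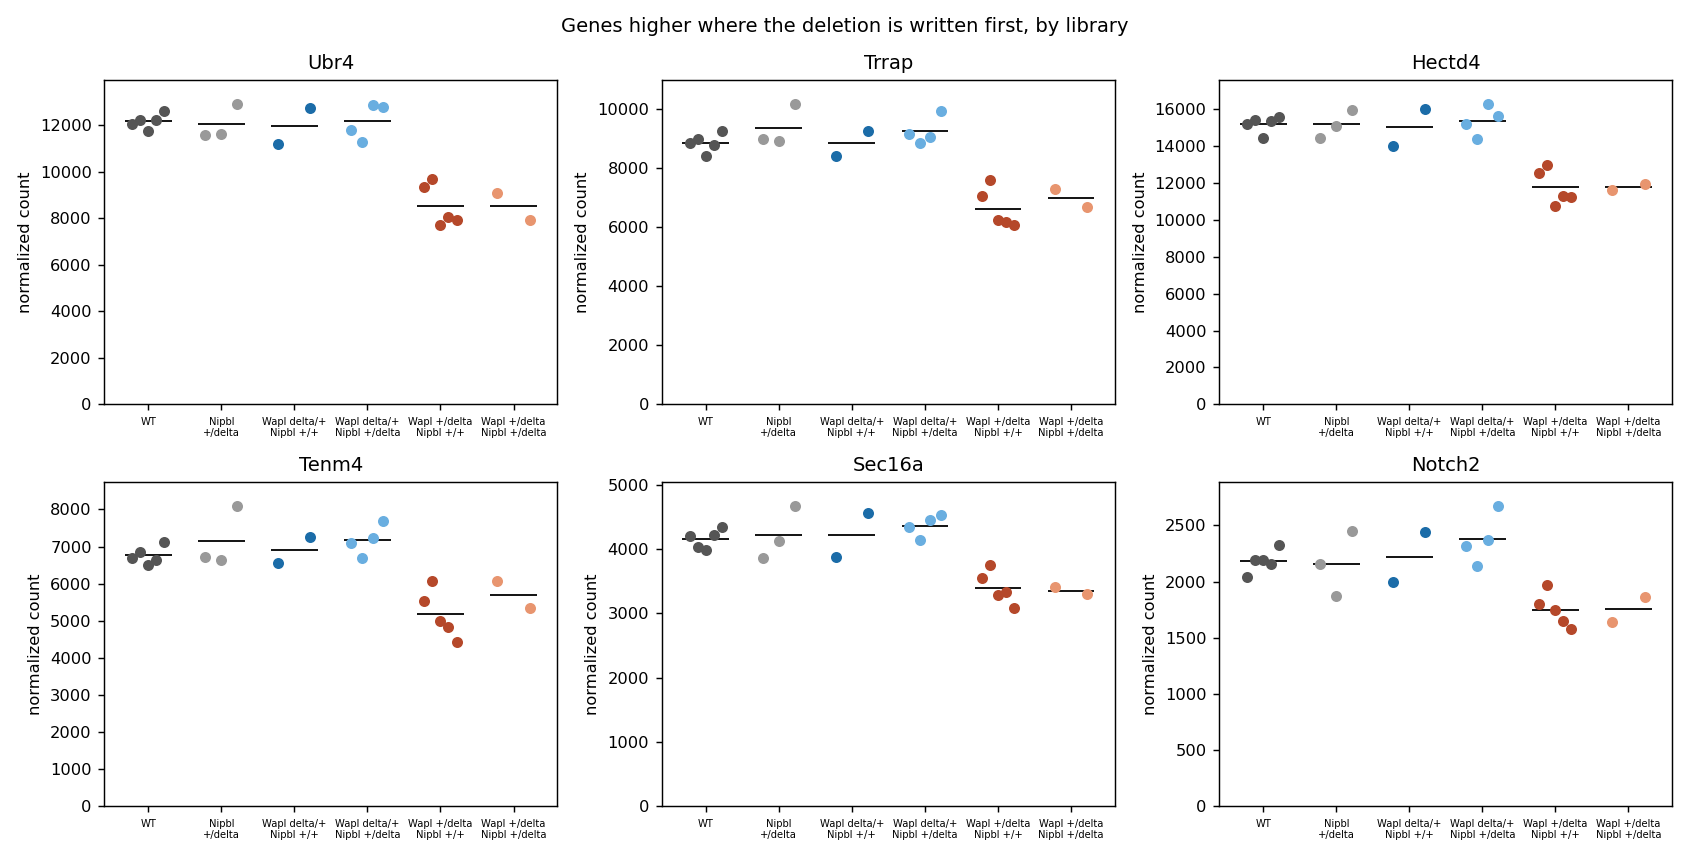
Normalized counts (y axes, from 0) of 6 genes called higher where the deletion is written first, in the 21 libraries; points are libraries in order of replicate number and lines are group means. For each gene, the 7 libraries with Wapl +/delta lie below all 6 with Wapl delta/+, and the Wapl delta/+ libraries lie at about the level of WT and Nipbl +/delta.

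The libraries without a Wapl deletion, which took no part in the choice of these genes, show which set stood apart. The mean of the libraries written second was below the WT mean for 36 of the 36 genes, with a median log2 ratio to WT of -0.31. The mean of the libraries written first had a median log2 ratio of 0.02 and was nearer to WT for 34 of the 36. Over all 17284 genes with at least 1 CPM, by comparison, the mean of the libraries written first was nearer to WT for 8044, and the medians were 0.00 for both sets. The means of both sets pool the Nipbl genotypes in unlike numbers and were not adjusted for them. In single libraries, the median of the 36 genes as a percentage of the WT mean was 93.1%, 105%, 102%, 98.8%, 105% and 107% where the deletion is written first. It was 84.1%, 88.8%, 76.2%, 77.8%, 72.8%, 81.8% and 78.6% where it is written second. The 5 WT libraries lay between 96.9% and 103%, including replicates 4 and 5, whose mt-Nd3 counts were high, at 99.0% and 103%. The 3 Nipbl +/delta libraries lay between 94.0% and 110%. Thus every library written second was under every other library of the series, although the genes were chosen for that separation among the 13 and the values are given as a description.

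**Figure D3:**
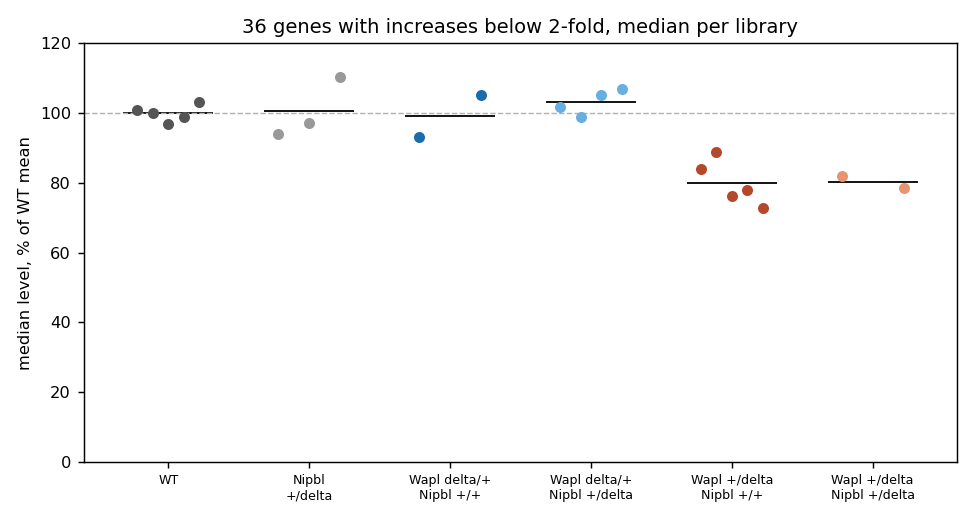
Median level of the 36 genes in each of the 21 libraries, as a percentage of the WT mean (y axis, from 0; dashed line at 100%); points are libraries and lines are group means. The 7 Wapl +/delta libraries lie between 72.8% and 88.8%, below the 93.1% to 110% of the other libraries.

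The 36 genes were long and abundant. Their median span on the reference, exons and introns together, was 101 kb over the 35 with a reference entry, against 22.9 kb over all genes with at least 1 CPM, and their median abundance was 108 CPM against 22.4 CPM. Genes averaging 50 CPM or more had a median span of 31.8 kb, and 28 of 5141 of them (0.545%) were called higher. The share called higher was 0.0241% among genes spanning up to 10 kb, 0.0822% at 10 to 30 kb, 0.310% at 30 to 100 kb, 0.7% at 100 to 300 kb and 1.13% over 300 kb. The median log2 difference moved little with span, however, from -0.02 in the shortest class to 0.00 at 100 to 300 kb and -0.01 over 300 kb, but this hid opposite movements within the Nipbl genotypes. From the shortest class to 100 to 300 kb, the median went from 0.02 to -0.01 within Nipbl +/+ and from -0.05 to 0.02 within Nipbl +/delta. These shifts were small beside the differences of the 36 genes. In the same libraries, ribosomal protein genes took 1.85% to 2.16% of counts where the deletion is written first and 1.89% to 2.46% where it is written second (exact permutation p = 0.470, adjusted p = 0.949). The paper states that its samples passed a minimum RNA integrity number, but its text gives no value for single libraries. Whether RNA integrity or library preparation had a part in the levels of these genes was not tested.

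2 genes of another size were also higher. Gm28438 is described above. Mid1-ps1, a pseudogene of Mid1 that the reference places on chromosome Y, had 72.0, 35.8, 72.2, 60.4, 16.3 and 66.4 normalized counts in the libraries written first and 6.09 to 27.2 in those written second (log2 difference 1.58, SE 0.32, adjusted p = 0.0754). The embryos are labelled female, and the gene shares sequence with Mid1, so the place its reads came from is uncertain. Double heterozygote replicate 3 lay among the libraries written second, and the WT libraries spread from 8.84 to 113. Leaving out 1 library at a time, the call held in 5 fits of 13.

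Among genes that were lower where the deletion is written first, those of the pituitary were detected in few libraries. Gh, growth hormone, had 215 and 778 counts in double heterozygote replicates 5 and 6 and 0 in the other 5 libraries written second. In the libraries written first it had 17 counts in Wapl heterozygote replicate 1, 1 in double heterozygote replicate 3 and 0 in the others. Its fitted log2 difference was -6.41 (SE 0.997, adjusted p = 0.0121), but it was -10.38 within Nipbl +/delta and 6.11 within Nipbl +/+, and without double heterozygote replicate 6 the adjusted p was 0.258. Ghrhr, the receptor for growth hormone-releasing hormone, had 5 and 37 counts in the same libraries and at most 1 in the other 11 with a Wapl deletion (log2 difference -4.92, SE 0.83, adjusted p = 0.0238, and 0.545 without double heterozygote replicate 6). A WT library, replicate 2, had 2056 counts of Gh and 48 of Ghrhr. Of 11 pituitary genes listed, 10 were tested and 2, Gh and Ghrhr, were called lower, against 0.0426% of all genes tested. Over the 11 listed, the summed level was 12.1 and 43.1 CPM in double heterozygote replicates 5 and 6, 92.6 CPM in WT replicate 2 and at most 4.45 CPM in the remaining 18. Double heterozygote replicates 5 and 6 are all the libraries written second with Nipbl +/delta. Without them position was compared within Nipbl +/+ only, and 10 genes were called by position in all, 5 of them among the 51.

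Liver genes were likewise higher in some of the libraries written second. Alb, which encodes albumin, had 169, 72, 111 and 106 counts in Wapl heterozygote replicates 3 and 4 and double heterozygote replicates 5 and 6. The other libraries had 0 to 3 counts. Ahsg (fetuin A) had 45, 23, 40 and 32 counts in the same libraries, and Kng1 (kininogen) had 12 and 9 in the double heterozygotes. The fitted log2 differences were -6.74 for Alb (SE 1.30, adjusted p = 0.0575), -6.59 for Ahsg (SE 1.20, adjusted p = 0.0421) and -4.48 for Kng1 (SE 0.87, adjusted p = 0.0582). A list of 16 liver genes, put together after these values had been seen, summed to 14.8, 8.14, 11.1 and 9.78 CPM in the 4 libraries and to between 1.96 and 3.38 CPM in the remaining 17. The list had 15 tested members, of which 3 were called lower, against 0.0426% of all genes tested. These 3, Alb, Ahsg and Kng1, were known when the list was made, so their number is not a result about the list. Not every member followed, as the counts of Apoa2, Apoh and Apob in the 4 libraries lay within the range of the remaining 17. In whole tissue a larger number of cells and more RNA per cell cannot be told apart. Whether these transcripts came from the brain itself or from other tissue in the sample was not tested. Alb, Ahsg and Kng1 kept their calls in 7, 8 and 7 of the 13 fits leaving out 1 library. Without the 4 libraries 68 genes were called by position, 56 of them higher, and 21 of the original 51 were still called. That fit, too, held no library written second with Nipbl +/delta.

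**Figure D4:**
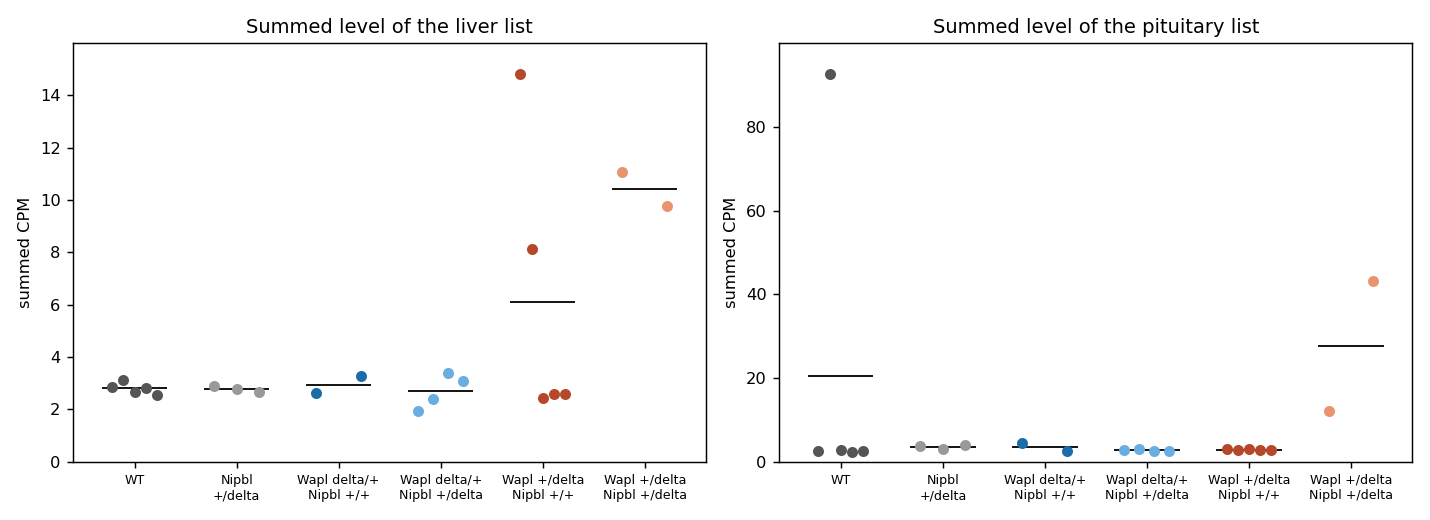
Summed level of 16 liver genes (left) and of 11 pituitary genes (right) in the 21 libraries, in CPM (y axes, from 0); points are libraries in order of replicate number and lines are group means. 4 libraries with Wapl +/delta stand above the rest for liver genes, and double heterozygote replicates 5 and 6 and WT replicate 2 for pituitary genes.

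Apart from mitochondrial, pituitary and liver genes, 5 genes were called lower where the deletion is written first. Mafa, a basic leucine zipper transcription factor, had normalized counts of 120, 109.5, 143, 183, 132 and 162 in the libraries written first and of 160.5 to 243 (median 201) in those written second. The sets overlapped slightly, and the log2 difference was -0.63 (SE 0.11, adjusted p = 0.0238). The endothelin peptide genes Edn1 and Edn3 were both lower. Edn3 had 120 to 161 normalized counts against 170 to 241 without overlap (log2 difference -0.49, SE 0.10, adjusted p = 0.0697), and Edn1 had 23.0 to 57.8 against 43.8 to 107 with overlap (log2 difference -0.98, SE 0.21, adjusted p = 0.0889). Clic5, which encodes a chloride intracellular channel protein, differed by -0.68 (SE 0.14, adjusted p = 0.0822). Efna3, an ephrin ligand, differed by -0.22 (SE 0.04, adjusted p = 0.0582). The libraries written first averaged 88.0%, 78.8%, 80.6%, 69.1% and 97.2% of the WT mean for Mafa, Edn1, Edn3, Clic5 and Efna3, and those written second 125%, 139%, 112%, 101% and 109%. These means pool both Nipbl genotypes in unlike numbers and were not adjusted for Nipbl genotype. In the libraries written first, Mafa averaged 114.6 normalized counts with Nipbl +/+ and 155.1 with Nipbl +/delta, against 160.9 in WT. In those written second, Edn1 averaged 53.7 with Nipbl +/+ and 85.5 with Nipbl +/delta, against 45.3 in WT. Mafa kept its call when any 1 library was left out except Wapl heterozygote replicate 2 or double heterozygote replicate 6. The other 4 genes kept theirs in 2 to 6 of those 13 fits.

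The comparison was then made within each Nipbl genotype. Among the 7 libraries with Nipbl +/+ (2 against 5) 4 genes were called (0.0131% of those tested), namely mt-Nd3, mt-Tg and Cnpy1, which were lower (0.00982%), and Gm28438, which was higher (0.00327%). Among the 6 libraries with Nipbl +/delta (4 against 2) 10 genes were called (0.0327%). Of these, Gm28438, Ubr4 and Csmd2 were higher (0.00982%), and mt-Nd3, mt-Tg, Gh, Pomc, Alb, Ahsg and Afp were lower (0.0229%). The numbers of calls varied with the libraries. Within Nipbl +/+ they were 162 without replicate 1, 42 without replicate 2, 23 without replicate 4 and 25 without replicate 5, where leaving out replicate 1 or 2 left 1 library written first. Within Nipbl +/delta they were 120 without replicate 5 and 1399 without replicate 6, which left 1 library written second. For 50 of the 51 genes the difference had the same sign within both genotypes, Gh being the exception. Ubr4, for example, differed by 0.49 with Nipbl +/+ and by 0.51 with Nipbl +/delta, Trrap by 0.42 and 0.39, and Gm28438 by 3.07 and 3.23.

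**Figure D5:**
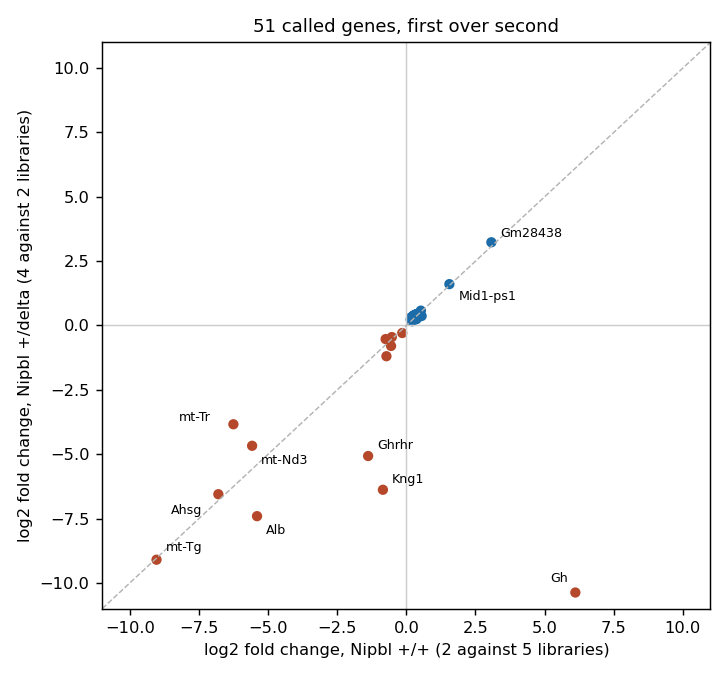
Log2 fold change, written first over second, of the 51 called genes within Nipbl +/+ (x axis, 2 against 5 libraries) and within Nipbl +/delta (y axis, 4 against 2 libraries); blue points were called higher and red points lower, and the dashed line marks equal values. All genes but Gh lie in the upper right or lower left. The genes were called from the libraries of both axes together, so this agreement is in part built into their choice.

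No gene was called for an interaction of position and Nipbl genotype by edgeR. The smallest adjusted p was 0.471, with 2087 genes at an unadjusted p below 0.05, and DESeq2 called 5. The interaction calls rose to 3 without double heterozygote replicate 5 and to 968 without replicate 6, where 1 library stood for Nipbl +/delta written second. Among the genes of smallest p were Gh, Pomc and Cga, which encode pituitary hormones or their subunits, together with Col16a1. Pomc had 108 and 299 counts in double heterozygote replicates 5 and 6 and 19 to 48 in the other 11 libraries with a Wapl deletion. The gene lists are to be read against the 0.167% of all tested genes that were called, a share at which most lists of their size would hold no call. Their counts at an unadjusted p below 0.05 are to be read against 1007 genes higher and 818 lower of the 30552 tested. None of 16 cohesin subunit and regulator genes was called, with a median log2 difference of 0.00, and Mau2 and Hdac8 were higher at an unadjusted p below 0.05 only. None of 57 clustered protocadherin genes was called, with a median of -0.05. None of 12 hindbrain Hox genes was called, with a median of -0.24 and 4 lower at an unadjusted p below 0.05. Of 33 gene lists, those with called members were the maternally expressed imprinted, mitochondrial, nuclear copy and pituitary lists described above. Markers of blood (0 of 9 called), meninges (0 of 13), choroid plexus (0 of 12), endothelium (0 of 9), microglia (0 of 10) and astrocytes (0 of 10) held no calls, which at 0.167% says nothing particular of these cell types. Genes known to differ between C57BL/6 substrains gave 0 calls of 7, with Ide and Cyfip2 higher at an unadjusted p below 0.05. Single libraries differed in some of these genes. Wdfy1 had 2072 normalized counts in Wapl heterozygote replicate 7 and 971.6 to 1141 in the other libraries of the series. Ide ranged from 1580 to 3558 over the 21 libraries. Whether genetic background differed between the libraries was not tested.

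The called genes were spread over the genome. No window of 10 Mb held more than 2 of them. The 6 windows with 2 included those of Ahsg and Kng1, which lie near each other on chromosome 16, Zfhx2 and Zfhx2os on chromosome 14, and Cacna1b and Sec16a on chromosome 2. Within 10 Mb of Wapl 1 of 156 tested genes was called, and within 10 Mb of Nipbl none of 80, against 0.167% of all genes tested.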

How the data were processed

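RNA from whole brains of female E17.5 embryos was sequenced by the study as poly(A) libraries in paired-end mode. Per the labels and methods, reads were trimmed with cutadapt 2.4, aligned to mm10 (GRCm38.p6) with STAR 2.5.3a and counted per gene with featureCounts of Subread 1.6.4. The annotation release, strand setting and handling of reads matching several places are not given in the sources used here. The authors deposited raw counts of 55335 genes for 21 libraries; a further library that the study set aside was not analysed here.

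A gene entered the tests (30552 did) if its normalized counts over the 21 libraries added to 10 or more. edgeR 4.0.16 (R 4.3.3) with TMM scaling fitted position of the Wapl deletion and Nipbl genotype to the 13 Wapl libraries, and the quasi-likelihood test was applied with Benjamini-Hochberg adjustment and a threshold of 0.10. Further fits were made within each Nipbl genotype and with an interaction. Adjusted p-values in the text come from edgeR unless stated. Library measures were tested by exact permutation within Nipbl genotype (315 assignments, smallest possible p 0.00317). Ratios of summed counts carry exact 95% intervals, and intervals and floors (3 counts) cover counting error only.

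Named genes were Wapl, Nipbl, mt-Nd3 and Gh, up to 12 largest called changes each way with at least 1 CPM and 1 sign in both Nipbl genotypes, called members of 33 gene lists, the 5 genes of smallest interaction p, and called genes of the 3 windows of 10 Mb with most calls. 6 windows tied at 2 calls, and the first 3 by chromosome name were taken. Hectd4, Zfhx3, Crebbp, Ep400, Chd7, Med13l, Dync1h1, Flna, Pcnt, Ift172, Pkd1, Ryr1, mt-Tr, mt-Co3, mt-Nd4l, mt-Nd4, Cnpy1, Afp and the liver list were named after their values were seen. Some genes that meet the rule are not reported here. The comparison and lists were chosen with earlier results of these data known. Gene positions, spans and neighbours are from RefSeq on GRCm38.p6, matched by symbol for 24076 of the genes tested. Procedures were checked on simulated data. Alternatives were DESeq2 1.42.0, other scalings, filters, thresholds and covariates, all 21 libraries in one fit, a replicate block, and leaving out each library.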

Additional observations from a re-analysis of the deposited data

Results flagged for a closer look

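7 values stood out from their group or went opposite ways in the Nipbl genotypes. Chance alone marks about 1 in 20 groups as holding a value far from the others, and 84 groups were examined. Wapl in Wapl heterozygote replicate 7, at 609.9 normalized counts, was under the other 4 libraries with Wapl +/delta and Nipbl +/+. Gh in double heterozygote replicate 3 (0.958 normalized counts), Ghrhr in Wapl heterozygote replicate 5 (1.22) and Ahsg in double heterozygote replicate 1 (0.963) stood out because each was 1 count in a group otherwise at 0. The share of counts from mitochondrially encoded genes was 1.47% in Wapl heterozygote replicate 5, below the other 4 of its group. Double heterozygote replicate 4 had a score of 0.61 on principal component 4, away from the other 3 of its group. Col16a1, a collagen gene, was lower in both libraries written first with Nipbl +/+ than in all 5 written second, and higher in all 4 written first with Nipbl +/delta than in both written second. The interaction was 0.79 on the log2 scale with an adjusted p of 0.722 (edgeR), so it did not pass the test.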

How the results depend on the processing

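Of the 51 genes called by position (38 higher, 13 lower), 23 (16 and 7) passed at 0.05. DESeq2 called 135 (114 and 21), no filter gave 159 (120 and 39), no Nipbl covariate 100 (89 higher) and a single fit to all 21 libraries 124 (105 higher), the last of which kept 46 of the 51. Other scalings and filters gave between 49 and 63. Without both libraries with pituitary transcripts 10 were called (6 and 4), 5 of them among the 51. Without the 4 with liver transcripts 68 were called (56 and 12), 21 of them among the 51. Both fits were added after the data were seen. Neither kept a library written second with Nipbl +/delta, so position was compared within Nipbl +/+ only. Leaving out 1 library at a time gave 10 to 123 (4 to 90 higher and 3 to 33 lower), 3 to 162 within Nipbl +/+, 7 to 1399 within Nipbl +/delta and 0 to 968 for the interaction; the cause was not tested. DESeq2 called 59 within Nipbl +/+, 62 within Nipbl +/delta and 5 for the interaction. Wapl differed by -0.08 to -0.01 under the settings that kept all libraries. Replicate numbers shared by Wapl and double heterozygotes did not pair the libraries (correlations of deviations from -0.34 to 0.43). The fit with a replicate block called 24 genes (1 higher, 23 lower), 6 of them among the 51. Gh changed sign, to 3.17 with DESeq2, 6.1 without the pituitary libraries and 6.08 without the liver libraries, and without the latter Alb was at 1.25 and Kng1 at 0.40. Low counts limit the fold changes of mt-Tg, Gh, Alb, Ahsg and Kng1.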
